A study of Mus musculus with 12 samples.

Results

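The genes described here encode the plasminogen activators urokinase (Plau) and tissue-type activator (Plat), the urokinase receptor (Plaur), the activator inhibitor Serpinb2, and 3 further intracellular serpins, Serpinb1a, Serpinb6a and Serpinb9. They were taken by symbol, with every probe set that the platform annotation maps to that symbol alone. This gave 7 of the 18193 genes named on the array and 11 of its 45037 probe sets without controls. The arrays came from C10, a mouse B-lineage cell line that carries an inducible form of the transcription factor C/EBPα, and from HAFTL, a fetal liver line transformed with Ha-ras. Groups of 2 arrays held HAFTL given beta-estradiol, C10 given the ethanol vehicle, and C10 given beta-estradiol for 3, 12, 24 or 48 h. The labels give no time for vehicle C10 or HAFTL, no promoter or vector for the inducible factor, and no word on whether the 2 samples of a group came from separate cultures. The p-values thus reflect only how far these samples differ from each other, a spread that could be technical.

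Plasminogen is a circulating zymogen that is cut to the broad protease plasmin. Urokinase, held at the cell surface by its receptor Plaur (CD87), and tissue-type activator make that cut, and serpins trap the activators as bait substrates. Serpinb2, also called PAI-2, inhibits urokinase, stays largely inside the cell and is known as an abundant product of stimulated monocytes and macrophages. The other clade B serpins named here act mainly inside cells: Serpinb1a, an orthologue of human SERPINB1, inhibits neutrophil serine proteases, Serpinb6a inhibits cathepsin G, and mouse Serpinb9 inhibits granzyme B.

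The start regions of Serpinb2 and Plaur, which changed, and of Serpinb9 are shown, because C/EBPα is a DNA-binding factor. The brightest Serpinb9 probe set did not pass the test against vehicle at any time. RefSeq windows of 250 bases before to 50 after a start (GRCm38.p6) matched 4 of the 7 genes, with 6 windows in all. No window matched Serpinb1a, which also changed, or Plau and Plat. Of the windows, 3 are printed 5′ to 3′ on the plus strand, which is the coding strand of each. Capitals mark every match, on either strand, to any of 7 motifs. For AP-1, the dimer of Fos and Jun proteins, the letters were TGANTCA, and for the cyclic AMP response element they were TGACGTCA. For C/EBP factors they were TTNNGNAAT and TTGCNNAA, which can overlap, and the latter form with an A before it and a T after it, which holds both. For PU.1 and other factors of the ETS family the letters were GAGGAAG. For the TATA box they were TATAAA. The windows lie at chr1:107511173-107511472 for Serpinb2, chr7:24462233-24462532 for Plaur and chr13:33004291-33004590 for Serpinb9.
Serpinb2: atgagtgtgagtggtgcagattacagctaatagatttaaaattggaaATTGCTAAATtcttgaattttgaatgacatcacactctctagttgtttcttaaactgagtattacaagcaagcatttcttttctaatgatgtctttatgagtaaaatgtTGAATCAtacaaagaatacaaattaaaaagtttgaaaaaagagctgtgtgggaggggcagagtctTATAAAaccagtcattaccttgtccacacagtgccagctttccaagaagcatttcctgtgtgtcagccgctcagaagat
Plaur: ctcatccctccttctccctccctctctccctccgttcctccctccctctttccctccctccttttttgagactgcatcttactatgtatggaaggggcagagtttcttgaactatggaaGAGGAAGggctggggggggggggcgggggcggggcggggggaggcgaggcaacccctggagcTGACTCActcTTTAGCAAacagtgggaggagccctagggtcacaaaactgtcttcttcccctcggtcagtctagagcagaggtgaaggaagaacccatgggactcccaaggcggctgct
Serpinb9: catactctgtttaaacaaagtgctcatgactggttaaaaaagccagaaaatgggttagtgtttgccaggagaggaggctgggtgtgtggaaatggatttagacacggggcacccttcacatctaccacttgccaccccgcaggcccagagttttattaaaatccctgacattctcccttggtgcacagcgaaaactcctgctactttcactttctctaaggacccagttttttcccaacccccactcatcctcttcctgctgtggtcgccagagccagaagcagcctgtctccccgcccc

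In the Serpinb2 window the longer C/EBP form began 203 bases before the start, and it holds the other C/EBP forms found there. The same window had an AP-1 match at 94 bases and TATAAA at 29 bases before the start. A second Serpinb2 window, at a start further downstream, had TTNNGNAAT and TTGCNNAA matches at 19 bases. The Plaur window had GAGGAAG at 131 bases, an AP-1 match at 69 bases and TTGCNNAA at 59 bases before the start. The Serpinb9 window and both Serpinb6a windows held none of these letters. Of 32817 windows of this length, 0.588% held the longer C/EBP form, 10.8% TTGCNNAA, 11.5% TTNNGNAAT, 7.81% TGANTCA, 1.79% TGACGTCA, 13.6% GAGGAAG and 13.6% TATAAA. A match describes the letters of a window and is not a shown binding site. Whether such matches go with the changes was not tested.

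Signals of marker genes were summed by cell type. The summed signal of 9 B-lineage markers was 105736 to 105775 in vehicle C10 and 116369 to 118597 in HAFTL, and it was 15618 to 16806 at 48 h. The summed signal of 8 macrophage markers was 1290 to 1359 in vehicle C10, 84105 to 85039 at 24 h and 116685 to 116768 at 48 h. Not every macrophage marker went with the sum. Mean Fcgr1 was 263 in vehicle C10 and 72.9 at 3 h, and mean Cd68 was 459 and 278. Mean Adgre1 was 88.1 in vehicle C10 and 149 at 48 h. A granulocyte list of 8 genes summed to 193 to 333 in vehicle C10, 3145 to 3310 at 12 h, 16730 to 18188 at 24 h and 9947 to 11315 at 48 h, although Elane lay above the filter level (below) in only 1 array and Ctsg in none. Sums were 173 to 263 for 5 T and NK markers and 65.4 to 151 for 4 mast cell and basophil markers over the 12 arrays. For 3 erythroid and megakaryocyte markers the sum was 283 to 358 in C10 and 712 to 824 in HAFTL. For 6 endothelial and stromal markers it was 656 to 783 in vehicle C10 and 1141 to 1409 at 24 h. The part of these other markers in the results was not tested. The ratio of 5′ to 3′ Actb signal, a measure of RNA and labelling quality, was 0.610 ± 0.040 (SD, n = 2) in vehicle C10, 0.716 ± 0.035 in HAFTL and between 0.765 and 0.825 in the group means of treated C10. The Actb ratio thus moved with treatment. The same ratio for Gapdh was 1.19 and 1.15 in vehicle C10, within the 1.13 to 1.32 of treated C10, and 1.37 and 1.28 in HAFTL. An 18S RNA control probe set read 2091 in the second 3 h array and 191 to 691 in the other arrays. The part of RNA quality in the changes below was not tested.

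Signals are intensities that had been scaled to an equal trimmed mean before deposit and were quantile normalised here, with a floor of 16. A probe set was tested if it exceeded a signal of 74.6, the median of all values, in at least 2 arrays. Of the 11 probe sets, 7 passed, and the brightest probe set of 5 of the 7 genes did. Changes were tested with limma over all 12 arrays, with Benjamini-Hochberg adjustment over 26524 probe sets, two-sided, at an adjusted p below 0.05, and errors of changes are standard errors of that fit. In bulk RNA, fewer cells that express a gene and less RNA per cell cannot be told apart.

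**Figure D1:**
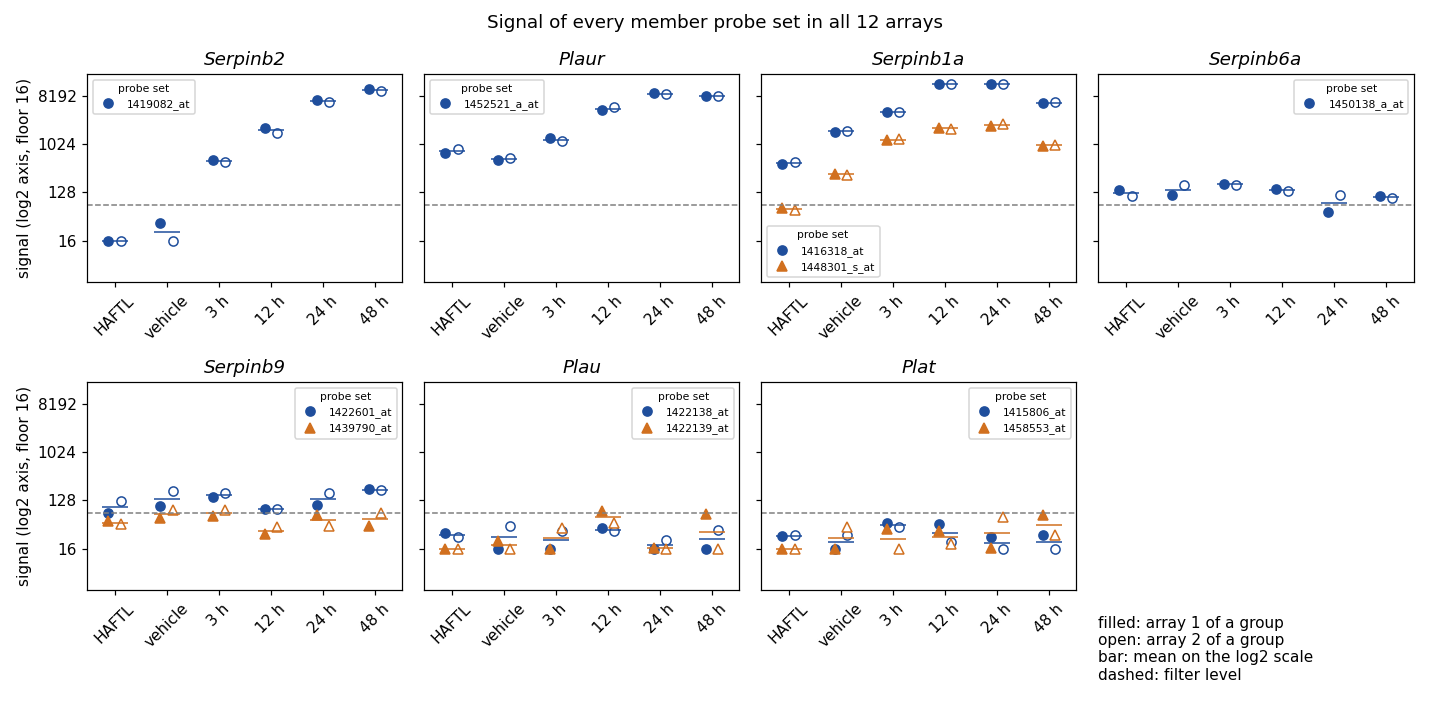
Signal (log2 axis, floor 16) of the 11 probe sets of the 7 genes in all 12 arrays, by group, with filled and open points for the 2 arrays of a group, a bar at their mean and a dashed line at the filter level of 74.6. Serpinb2 goes from under the filter level in vehicle C10 to 10273 and 11145 at 48 h, Plaur and Serpinb1a start above it and rise, and Plau and Plat stay near or under it.

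Treated C10 had far more Serpinb2 RNA than vehicle C10, and the signal was higher at each later time sampled. In vehicle C10 the Serpinb2 signal was 33.9 in 1 array and at the floor of 16 in the other, and both HAFTL arrays were at the floor. It was 524 and 478 at 3 h, then 2078 and 1654 after 12 h. It was 6968 and 6177 at 24 h, then 11145 and 10273 at 48 h. No array of one C10 time overlapped with those of another, and every treated C10 array lay above the filter level while no vehicle or HAFTL array did. The probe set entered the test only through the treated C10 arrays, so its being called is partly set by the filter.

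Against vehicle C10, measured from the filter level, Serpinb2 was at least 6.70-fold higher at 3 h (limma adjusted p = 3.6e-05) and at least 24.8-fold higher at 12 h (adjusted p = 5.6e-06). At 24 h it was at least 87.9-fold higher (adjusted p = 1.2e-06) and at 48 h at least 143-fold higher (adjusted p = 4.5e-07). Between times where both groups were measured, it rose by 1.89 ± 0.31 on the log2 scale from 3 h to 12 h (adjusted p = 0.0043) and by 1.82 ± 0.31 from 12 h to 24 h (adjusted p = 0.0027). The difference from 24 h to 48 h was 0.71 ± 0.31 (adjusted p = 0.16), not past the test although the arrays did not overlap. That step passed without either vehicle array, at an adjusted p of 0.019 each, and with a floor of 64, at 0.0053. With a floor of 1 the 3 h to 12 h step had an adjusted p of 0.23 and the 12 h to 24 h step 0.22. The vehicle arrays straddle the floor, and their spread enters the error of every Serpinb2 comparison.

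The receptor gene Plaur was already measured in vehicle C10 and HAFTL and rose in treated C10 until 24 h. Its signal was 510.2 and 565 in vehicle C10 and 688 and 820.0 in HAFTL. It was 1308 and 1178 at 3 h, then 4454 and 4965 after 12 h. It reached 9202 and 8858 at 24 h and was 8224 and 8011 at 48 h. Every treated C10 array exceeded every vehicle C10 and HAFTL array, and HAFTL lay between vehicle C10 and 3 h without overlapping either.

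Plaur was 2.31-fold higher at 3 h, a log2 change of 1.21 ± 0.12 (limma adjusted p = 0.00018). The fold was 8.76 at 12 h (adjusted p = 2.1e-06), 16.8 at 24 h (adjusted p = 4.5e-07) and 15.1 at 48 h (adjusted p = 2.5e-07). The steps from 3 h to 12 h (1.92 ± 0.12, adjusted p = 8.7e-05) and from 12 h to 24 h (0.94 ± 0.12, adjusted p = 0.00067) were rises. The difference from 24 h to 48 h was -0.15 ± 0.12 and did not pass the test (adjusted p = 0.43), although the arrays did not overlap. When arrays were scaled to their poly-A control probe sets, the 12 h to 24 h step of Plaur was 0.54 with an adjusted p of 0.47, against a median of -0.45 over all probe sets. The 2 arrays of a group differed in mean log2 poly-A signal, least at 12 h (7.75 and 7.64) and most at 48 h (8.39 and 7.40). This scaling thus adds spread between the arrays of a group to every probe set. The group means of that signal also differed, at 8.46 in vehicle C10 and 7.70 at 3 h. The scaling therefore shifts the changes between groups as well. The part of each in a lost call was not tested, and a call lost under it, here and below, does not show that a change is absent.

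The activators themselves lay near or under the filter level. Plau, which encodes the ligand of Plaur, gave signals of 16 to 43.5 with 1 probe set and 16 to 79.8 with the other, where only 1 of 12 arrays, at 12 h, exceeded 74.6. Plat gave 16 to 49.0 and 16 to 69.8 with its 2 probe sets, with no array above that level. Neither gene was tested, and a low signal of these probe sets bounds the level only as far as these probes detect it. The receptor and the inhibitor thus rose in cells in which no group had both arrays above the filter level for either activator.

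Serpinb1a RNA rose early, stayed on a plateau and then fell back in part. Its brighter probe set read 1743 and 1814 in vehicle C10 and 436 and 475 in HAFTL. It read 4024 and 4149 at 3 h, 13357 and 13415 after 12 h, and 13835 and 13735 at 24 h. At 48 h it read 5969 and 6213. The arrays of the 6 groups did not overlap, in the order HAFTL, vehicle, 3 h, 48 h, 12 h, 24 h.

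Serpinb1a was 2.30-fold higher than vehicle at 3 h (1.20 ± 0.08 on the log2 scale, limma adjusted p = 3.4e-05), 7.53-fold at 12 h (adjusted p = 7.2e-07), 7.75-fold at 24 h (adjusted p = 3.5e-07) and 3.42-fold at 48 h (adjusted p = 1.5e-06). The 12 h and 24 h levels differed by 0.04 ± 0.08 (adjusted p = 0.74). The 48 h level was 2.26-fold lower than that at 24 h (adjusted p = 0.00017). With arrays scaled to the poly-A controls this fall was not called (adjusted p = 0.45), and its size relative to the median of all probe sets, which was not tested, was -1.23 on the log2 scale.

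The second Serpinb1a probe set also rose until 24 h and was lower at 48 h, at a lower signal throughout. It read 287 and 271 in vehicle C10, 1212 and 1281 at 3 h, 2086 and 1971 after 12 h, 2217 and 2416 after 24 h, and 965 and 999 at 48 h. Its change at 3 h was larger than that of the first, 4.47-fold (adjusted p = 5.9e-06), and its folds of 7.27, 8.30 and 3.52 at the later times were close to those of the first. Its 3 h arrays lay above its 48 h arrays, the reverse of the order in the first. From 3 h to 12 h the second probe set rose by 0.70 ± 0.09 (limma adjusted p = 0.0017) and the first by 1.71 ± 0.08 (adjusted p = 3.5e-05). With the poly-A scaling the adjusted p of that step was 0.63 for the second and 0.05 for the first. The type of the second probe set allows it to detect related transcripts, and mouse has near-identical Serpinb1 copies.

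The granulocyte markers were also higher in sum at 24 h than at 48 h (above), mostly through Camp (mean signal 7994 and 2593) and Prtn3. S100a8 was not lower at 48 h (6392 and 6566). Of the 4 granulocyte markers tested, 1 was called lower over this step and 0 higher, beside 11.1% and 7.26% of all tested probe sets. At 12 h the granulocyte sum was 3145 to 3310, against 16730 to 18188 at 24 h, whereas Serpinb1a was near its 24 h level by 12 h. The part of these markers in the Serpinb1a course was not tested. Among them Prtn3 encodes proteinase 3, a neutrophil protease that human SERPINB1 inhibits. Prtn3 read 28.1 and 138 in vehicle C10, 103 and 96.6 at 3 h, 452 and 416 after 12 h, 2822 and 2930.4 at 24 h, then 1259 and 1271 at 48 h. Its changes against vehicle were 2.80 ± 0.60 at 12 h (adjusted p = 0.0067), 5.53 at 24 h (adjusted p = 0.00017) and 4.35 at 48 h (adjusted p = 0.00048), with a vehicle group whose arrays lay on both sides of the filter level.

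Serpinb6a and Serpinb9 were measured near the filter level and did not pass the test against vehicle at any time with their brightest probe sets. Serpinb6a read 113 and 179.5 in vehicle C10, 188 and 175 at 3 h, 147 and 136 after 12 h, 55.7 and 117 at 24 h, 109 and 102 after 48 h, with 142 and 109.9 in HAFTL. Of the other groups only 48 h lay outside the range of the vehicle arrays, below it, and the difference at 24 h was -0.82 ± 0.35 (adjusted p = 0.083). Without the second 24 h array that difference was -1.36 (adjusted p = 0.0085), so 1 array decides the call. Serpinb6a has close paralogs on the same chromosome, which makes its signal uncertain.

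Serpinb9 read 99.6 and 192 in vehicle C10, 149 and 179.6 at 3 h, 88.1 and 89.8 after 12 h, 108 and 178 at 24 h, 207 and 199 after 48 h, with 76.2 and 128 in HAFTL. The 48 h arrays lay above and the 12 h arrays below the range of vehicle C10, but the 48 h difference of 0.55 ± 0.37 from vehicle did not pass the test (adjusted p = 0.25). A dimmer Serpinb9 probe set read 61.1 and 86.1 in vehicle and 30.3 and 40.3 at 12 h, a change of -1.05 ± 0.34 (adjusted p = 0.039). Leaving out 1 array at a time gave that change an adjusted p between 0.024 and 0.19, above 0.05 in 8 of 12 cases. At 48 h the dimmer probe set differed from vehicle by -0.36, against 0.55 for the brighter one, and neither passed the test.

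**Figure D2:**
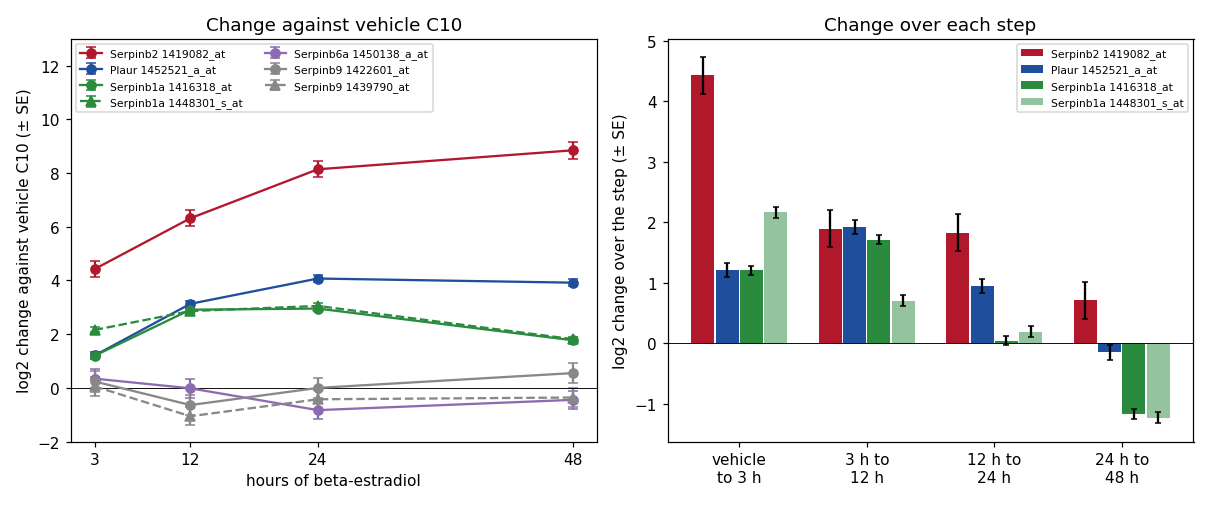
Left, log2 change against vehicle C10 (± SE of the limma fit, 2 arrays a group) by hours of beta-estradiol for the 7 probe sets tested. Right, change over each step for the probe sets of Serpinb2, Plaur and Serpinb1a. Serpinb2 rises by 1.89 and 1.82 over the middle steps, Plaur changes by -0.15 over the last step and both Serpinb1a probe sets fall from 24 h to 48 h. The Serpinb2 values against vehicle depend on the floor and the step to 48 h did not pass the test.

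Among the 5 genes tested, Serpinb2, Plaur and Serpinb1a rose at every time against vehicle and none fell. At 3 h, 40.9% of all tested probe sets were called, 20.6% higher and 20.3% lower. The shares called higher and lower were 22.1% and 21.7% for 12 h, 23.7% and 26.4% for 24 h, and 25.5% and 30% for 48 h. The same 3 genes rose from 3 h to 12 h, where 12.1% of probe sets were called higher and 11.2% lower. Serpinb2 and Plaur rose from 12 h to 24 h, where the shares were 16.5% and 18.1%. Serpinb1a alone fell from 24 h to 48 h, where they were 7.26% and 11.1%. The moderated F test over the 5 C10 groups called the same 3 genes, against 69% of all probe sets, and its adjusted p was 0.091 for Serpinb6a and 0.14 for Serpinb9.

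The direction of calls over all probe sets depended on scaling. Under the main scaling 50.4% of calls at 3 h were higher, and 88.7% with arrays scaled to the poly-A controls. The corresponding shares were 50.4% and 90.3% at 12 h, 47.3% and 71.5% after 24 h, and 46% and 77.5% at 48 h. For the steps they were 52.1% and 65.6% from 3 h to 12 h, 47.6% and 26.5% from 12 h to 24 h, and 39.5% and 60% from 24 h to 48 h. That scaling moved the median of all probe sets to 0.70, 0.74, 0.26 and 0.51 at the 4 times, from 0.03, 0.01, -0.04 and -0.06. Relative to this median, the change at 3 h was 1.20 for Plaur and 1.27 for the brighter Serpinb1a probe set, and all rises of Serpinb2, Plaur and Serpinb1a against vehicle were still called.

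HAFTL given estradiol had less Serpinb1a RNA than vehicle C10. The comparison spans line, inducible factor and agent, which cannot be told apart. Serpinb1a was 3.91-fold lower in HAFTL (-1.97 on the log2 scale, limma adjusted p = 3.8e-05), and the second probe set, at 65.1 and 60.5 in HAFTL, was at least 3.74-fold lower (adjusted p = 3.9e-05). Scaled to the poly-A controls the brighter probe set changed by -1.82 (adjusted p = 0.069) and the second by -1.99 (adjusted p = 0.031).

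Plaur was 1.40-fold higher in HAFTL (0.49 ± 0.12, adjusted p = 0.045), a call that was lost when any of the 12 arrays was left out, with adjusted p between 0.058 and 0.19. Serpinb2 was under the filter level in both lines. In this comparison 9.4% of all probe sets were called, 4.42% higher and 4.98% lower, and 47% of the calls were higher. That share was 27.4% with arrays centred on their median and 56.1% when scaled to the poly-A controls.

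At 48 h, C10 differed from HAFTL, which received the same agent, in 4 of the 5 genes tested, all higher, while 24.9% of all probe sets were called higher and 30.3% lower. Serpinb2 was at least 143-fold higher (limma adjusted p = 3.2e-07), Serpinb1a 13.4-fold (adjusted p = 6.9e-08) and Plaur 10.8-fold (adjusted p = 4.1e-07). Serpinb9 was higher by 1.04 ± 0.37 on the log2 scale (adjusted p = 0.046), and leaving out 1 array gave an adjusted p between 0.026 and 0.24, above 0.05 in 7 of 12 cases. The dimmer Serpinb9 probe set differed by 0.20 and was not called (adjusted p = 0.65), and its arrays overlapped. Of the calls over all probe sets 45.1% were higher, and 71.6% with the poly-A scaling. The comparisons with vehicle at different times share the vehicle arrays.

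Other genes of the plasminogen system were counted from a list of 24, of which 20 were on the array and 11 were tested. Against vehicle, 1 was higher and 5 lower at 3 h, 2 and 2 after 12 h, 9 and 0 at 24 h, then 8 and none by 48 h. Of all tested probe sets 20.6% were called higher and 20.3% lower at 3 h, and 22.1% and 21.7% after 12 h. The shares were 23.7% and 26.4% at 24 h, and 25.5% and 30% by 48 h. The list's median change was -0.15, 0.20, 1.12 and 1.43 at these times, beside medians over all tested probe sets of 0.03 to -0.06. In HAFTL none was higher and 3 were lower, Lrp1, Itgb2 and St14, and none was called there with the poly-A scaling. With arrays scaled to the poly-A controls, 1 was higher and 0 lower at 3 h, then 3 and 0 after 12 h, so the early falls were not called under that scaling, while 7 were higher and 0 lower at both 24 h and 48 h. Plasminogen itself (Plg) was at 16 to 32.2 in HAFTL and no array exceeded the filter level.

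Of the genes named from the list, Anxa2 and S100a10 encode a plasminogen-binding pair. Anxa2, which with S100a10 forms a plasminogen-binding complex, read 45.7 and 72.2 in vehicle C10, 475 and 378 at 12 h, 1938 and 1928 at 24 h, then 421 and 312 at 48 h. Like Serpinb2, Anxa2 passed the filter only through treated arrays, those from 12 h on, so its being called is partly set by the filter. It was at least 25.9-fold higher at 24 h (limma adjusted p = 6.6e-06) and at least 4.85-fold at 48 h (adjusted p = 0.00012). S100a10, measured by a probe set that may detect related transcripts, changed by -1.05 ± 0.12 at 3 h (adjusted p = 0.00039) and by 1.43 at 48 h (adjusted p = 3.2e-05). Scaled to the poly-A controls, its 3 h change was -0.21 (adjusted p = 0.74).

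Itgam, the CD11b chain of an integrin that partners Plaur, read 16 and 20.8 in vehicle C10, 262 and 164 at 24 h, then 645 and 675 at 48 h, at least 8.84-fold higher (adjusted p = 6.1e-06). It passed the filter only through the 24 h and 48 h arrays, which partly sets that call. Itgam is also on the macrophage marker list. Its partner chain Itgb2 changed by -0.92 ± 0.09 at 3 h (adjusted p = 0.00015) and by 1.75 at 48 h (adjusted p = 2.1e-06), and with the poly-A scaling by -0.18 at 3 h (adjusted p = 0.78).

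Lrp1, the endocytic receptor that clears serpin and activator complexes, read 240.0 and 235 in vehicle C10, 95.2 and 83.7 at 3 h, 1259 and 1355 at 24 h, then 1675 and 1938 at 48 h. Its change was -1.41 ± 0.20 at 3 h (adjusted p = 0.0011) and 2.92 at 48 h (adjusted p = 1.1e-05), and the first had an adjusted p of 0.20 with the poly-A scaling. Serpini1, neuroserpin, an inhibitor of tissue-type activator, read 48.9 and 16 in vehicle C10 and 344 and 341 at 48 h, at least 4.59-fold higher (adjusted p = 0.0011).

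**Figure D3:**
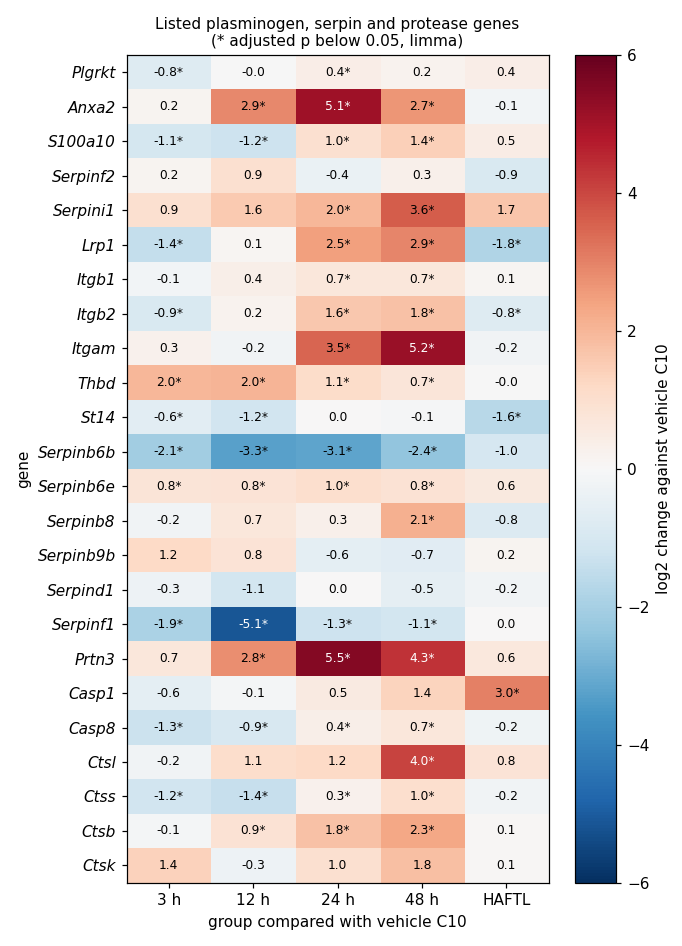
Log2 change against vehicle C10 at each time and in HAFTL for the tested genes of the plasminogen system, serpin and protease lists, with an asterisk where the limma adjusted p is below 0.05. Lrp1 and Itgb2 are lower at 3 h and higher at 48 h, Anxa2 peaks at 24 h with 5.07, and Serpinb6b and Serpinf1 are lower at all 4 times. Changes of genes under the filter level in one group depend on the floor, and the falls of Lrp1, Itgb2 and Serpinf1 at 3 h were not called with the poly-A scaling.

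Few other serpins were measured. Of 14 other clade B genes on the array 4 were tested, with 1 higher and 1 lower at each of 3 h, 12 h and 24 h, then 2 and 1 by 48 h, and a median change of 0.08 at 48 h. The shares at 3 h, 12 h and 24 h lie near those of all tested probe sets given above. Serpinb6b, a granzyme A inhibitor in mouse, read 428 and 440.0 in vehicle C10, 121 and 85.5 at 3 h, 53.7 and 37.9 after 12 h, 35.5 and 68.0 at 24 h, then 81.1 and 85.1 at 48 h. Its log2 change was -2.09 ± 0.31 at 3 h (limma adjusted p = 0.0014) and was at least 5.81-fold lower at 12 h (adjusted p = 0.00013). Serpinb6e, measured by a probe set that may detect related transcripts, changed by 0.85 at 48 h (adjusted p = 0.0089). Serpinb8 was at least 1.64-fold higher at 48 h (adjusted p = 0.037). Serpinb8 passed the filter only through 3 treated C10 arrays, so its being called is partly set by the filter.

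Of 22 serpins outside clade B on the array 4 were tested, and 1 rose and 1 fell at 48 h, with a median of -0.12. Those shares lie near the 25.5% higher and 30% lower over all tested probe sets. Serpini1, which rose, and Serpinf2 are also on the plasminogen system list. Serpinf1, the secreted pigment epithelium-derived factor, read 7127 and 7351 in vehicle C10, 1846 and 2091 at 3 h, 185 and 229 after 12 h, 3099 and 2976 at 24 h, then 3237 and 3486 at 48 h. Its change was -5.14 ± 0.12 at 12 h (adjusted p = 4e-07) and -1.11 at 48 h (adjusted p = 0.00013). Serpinf1 was thus lowest at 12 h. With the poly-A scaling its 48 h change was -0.49 (adjusted p = 0.45).

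Of 12 proteases that intracellular serpins inhibit, all on the array, 7 were tested. None was higher and 2 were lower at 3 h, 2 and 2 after 12 h, 4 and 0 at 24 h, then 5 and none by 48 h, with medians of -0.20, -0.13, 0.95 and 1.78, beside 0.03, 0.01, -0.04 and -0.06 over all probe sets. The counts of 3 h and 12 h are near the shares over all probe sets, 20.3% lower at 3 h and 22.1% higher and 21.7% lower after 12 h. The lysosomal cathepsin Ctsb changed by 0.87 ± 0.08 at 12 h, 1.77 at 24 h and 2.34 at 48 h (adjusted p = 5e-07). Ctsl, at 308 and 296 at 48 h, was at least 4.04-fold higher (adjusted p = 0.00074), and it passed the filter only through those 2 arrays. Ctss and Casp8 changed by -1.16 and -1.28 at 3 h and by 1.00 and 0.66 at 48 h, and neither early fall was called with the poly-A scaling (adjusted p = 0.71 and 0.46).

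The serpins of the set lie in 2 gene clusters, and levels are not compared between their probe sets. On chromosome 1, RefSeq (GRCm38.p6) lists 12 Serpinb genes, of which 7 were measured by a single-gene probe set and 2 passed the filter, Serpinb2 and Serpinb8. The neighbours of Serpinb2 that were measured on its other side, Serpinb7 and Serpinb11, exceeded the filter level in 0 arrays. On chromosome 13, 11 of 16 Serpinb genes were measured and 6 passed, among them Serpinb1a, which rose, and Serpinb6b, which fell, with only Serpinb1c listed between them.

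Over the 12 arrays the log2 signals of Serpinb2 and Plaur had a Pearson r of 0.955, those of Serpinb2 and Serpinb1a 0.876 and those of Plaur and Serpinb1a 0.823, as a description, since the arrays form 6 groups of 2 and share the treatment. Among 11695 other genes, those most like Serpinb2 were Edem1 (r = 0.998), Mmp8 (0.996) and Fam53c (0.994). Those most like Plaur were Pgd (0.995), Msrb1 (0.994) and Fosl2 (0.993). Those most like Serpinb1a were Pxylp1 (0.995), Slc7a5 (0.987) and Lrrk2 (0.985). The highest values were lower for Serpinb6a (Gm5914 0.866, Sema6a 0.860 and Pold3 0.855) and Serpinb9 (Fam151a 0.865, Cblb 0.815 and Hmga2 0.813).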

How the data were processed

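RNA of 12 samples in 6 groups of 2 was measured on mouse one-colour arrays after Trizol extraction and biotin labelling, per the labels. The deposited table holds 1 linear intensity for each probe set and array. All arrays had the same mean once the top and bottom 2% of probe sets were trimmed, so the authors had scaled them. How probes were summarised, and any detection call, is not given in the sources used here. Median intensity per array was 68.5 to 85.0, and 21.2% to 24.6% of probe sets lay under a signal of 16. The number of arrays limits the precision.

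Log2 intensities were quantile normalised over all 45101 probe sets, 64 control probe sets were dropped, and 16 was taken as the floor. Probe sets above a log2 signal of 6.22 in at least 2 arrays were tested with limma (3.58.1, R 4.3.3), with 1 mean per group and 6 residual degrees of freedom. A gene counted as called by its brightest probe set. Where a group lay wholly under the filter level, the fold is the bright group's mean over that level, given as at least so many fold, with the adjusted p of the fit.

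Probe sets were named from the platform annotation, and 34741 of 34945 with a single gene were found in RefSeq (GRCm38.p6). A further 932 with several genes and 9160 with none were not used by name. From each list, the 4 called genes with the largest change at 48 h and any that changed direction between 3 h and 48 h were named. The genes and lists were chosen with earlier results of these data known. The fit was tested on simulated data. Alternatives were other scalings, filters and floors, a minimum change, only the groups compared, a replicate block and leaving out each array.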

Additional observations from a re-analysis of the deposited data

How the results depend on the processing

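Of 882 member values under settings other than leaving out an array, 845 kept their side of the threshold, 33 lost the call, 4 gained it and 0 called values changed sign, while some values that were not called did. Of 756 values with 1 array left out, 722 kept their side of the threshold, 27 lost and 7 gained the call. The count of genes called at 3 h, 3 in the main setting, was 1 when a log2 change above 1 was required. The HAFTL against vehicle count of 2 became 1 with median centring, without a filter, with only the groups compared, and with that minimum change, 0 with poly-A scaling, and 1 to 2 with 1 array left out. The 12 h to 24 h count of 2 became 1 with poly-A scaling, 1 with a floor of 1 and 0 with the minimum change. The 24 h to 48 h count of 1 became 0 with poly-A scaling, 2 with a floor of 64, 0 with the minimum change, and 1 to 2 with 1 array left out. With 1 array left out, the counts were 3 at 3 h, 12 h and from 3 h to 12 h, 3 to 4 at 24 h, 3 at 48 h, 3 to 4 for 48 h against HAFTL, 2 to 3 from 12 h to 24 h and 3 to 4 for the F test. Beyond what the construction of a setting shows, the causes were not tested. The F test with a minimum change was not run.

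The replicate numbers were not shown to pair samples: over 15 pairs of groups the correlation of replicate differences was -0.034 to 0.027, and 0 exceeded 0.1. With the replicate block the HAFTL count was 1, and no other count of genes called moved by over 1.5 times.

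Over all probe sets, the share called at 3 h was 40.9% and 5.1% with the minimum change, and for HAFTL 9.4%, 0.726% with poly-A scaling and 0.434% with only the groups compared. With 2 arrays a group, differences of genes near the filter level, such as Serpinb6a and Serpinb9, are measured with an error of about 0.35 to 0.37 on the log2 scale.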

Other observations

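Some listed genes moved in ways not described above, and they were chosen after their values were seen. Thbd, thrombomodulin, the endothelial cofactor that turns thrombin towards activation of protein C and of the fibrinolysis inhibitor TAFI, read 639 and 566 in vehicle C10, 2468 and 2316 at 3 h, 2424 and 2492 after 12 h, 1371 and 1251 at 24 h, then 969.6 and 1027 at 48 h. Its change was 1.99 ± 0.10 at 3 h (limma adjusted p = 9.5e-06), 1.12 at 24 h and 0.73 at 48 h (adjusted p = 4e-04). Thbd was therefore the only one of the 11 tested plasminogen system genes called higher at 3 h.

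Casp1, the inflammatory caspase, read 476 and 482 in HAFTL and 52.5 and 64.9 in vehicle C10, at least 6.42-fold higher in HAFTL (limma adjusted p = 0.018). It was the only tested protease of the list called in that comparison. St14, matriptase, a membrane protease that can activate pro-urokinase, read 329 and 369 in vehicle C10 and 126 and 98.3 in HAFTL, a change of -1.65 (adjusted p = 0.0025), which had an adjusted p of 0.19 with the poly-A scaling.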
